A study of Mus musculus with 5 samples.

Results

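The 10 genes described here belong to 3 families of secreted matrix proteins: the thrombospondins Thbs1, Thbs2, Thbs3, Thbs4 and Comp, the cartilage intermediate layer proteins Cilp and Cilp2, and the matrilins Matn2, Matn3 and Matn4. They were taken by gene symbol, 10 of the 27998 genes counted, and each symbol was found once. The material was single-cell RNA of the mouse temporomandibular joint (TMJ) disc, the fibrocartilage pad between the jaw condyle and the skull, in 5 libraries with 1 library per condition. Normal discs were taken at 3 d (newborn), 3 w (juvenile), 16 w (adult) and 78 w (aged). The injured library is labelled as the TMJ disc injury model. By the study's methods, discs in that model were punctured in mice 5 weeks old, with collection 2 weeks after that.

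All libraries are labelled C57BL/6 and wild type. The name of the file of the library labelled 78 w carries a tag that reads as a younger age, and the label is followed here, so each 78 w value below rests on it. Male and female pups were mixed in the 3 d suspension, and only males gave those of 3 w, 16 w and 78 w. For the injury model the study's methods name mice with Myh11-CreER, a tamoxifen-driven recombinase of smooth muscle and mural cells, and a floxed red fluorescent reporter (Tm fl/-), whereas the label of that library says wild type. The methods also describe tamoxifen injections for mice of that genotype, and name males alone for their use in lineage tracing. Whether the animals of the injured library were injected, and their sex, are not stated for that library. No uninjured library of 7 weeks, the age at collection by the methods of the injury model, was analysed here. The injured library is therefore set beside both 3 w and 16 w. Discs were digested with Pronase and then Collagenase P. With 1 library per condition no difference between conditions was tested, and intervals below cover counting error alone. A library's age, its sex make-up, its animals and its handling cannot be told apart.

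Thrombospondins are calcium-binding glycoproteins that bridge collagens, proteoglycans and cell surface receptors. Thbs1 and Thbs2 assemble as trimers and carry the type 1 repeats that bind CD36, and Thbs1 can activate latent TGF-beta. Thbs3, Thbs4 and Comp, which is thrombospondin 5, assemble as pentamers, and Comp is a classical product of chondrocytes and tendon cells that catalyses collagen fibril assembly. Cilp is a large glycoprotein of the middle zones of articular cartilage and of intervertebral disc that binds TGF-beta and IGF1 signalling proteins, and Cilp2 is its paralogue. Matrilins are adaptor proteins with von Willebrand factor A domains that link collagen fibrils to aggrecan and Comp. Matn3 belongs to cartilage, while Matn2 is also made by fibroblasts, Schwann cells and smooth muscle.

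The genes lie on 8 chromosomes of GRCm38, by the GENCODE M21 annotation. Comp is at chr8:70373558-70382066 and Cilp2 at chr8:69880369-69887687, on opposite strands of the same chromosome. Thbs3 is at chr3:89215180-89226837, Thbs4 at chr13:92751590-92794818, Thbs1 at chr2:118111876-118127133 and Thbs2 at chr17:14665500-14694235. Cilp is at chr9:65265180-65280605, Matn2 at chr15:34306677-34436273, Matn3 at chr12:8947929-8972028 and Matn4 at chr2:164389393-164405160. On the opposite strand, Thbs3 overlaps Mtx1, Thbs1 overlaps Gm29233, Matn2 overlaps 9430069I07Rik and Matn4 overlaps Rbpjl. The counting strand is not given in the sources used here, so reads of those partners cannot be told apart from the members' own.

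Promoters of 7 of the 10 genes were found in RefSeq (GRCm38.p6). The 250 bases before the RefSeq transcription start are printed for Cilp, Cilp2, Thbs3 and Thbs4. The levels of Cilp and Cilp2 moved together from 3 d to 3 w and apart afterwards. Thbs3 and Thbs4 are pentamer subunits whose levels differed in opposite directions between 3 d and each later normal library. Capitals mark matches, on either strand, to the TATA box as TATAAA or as TATATAA, the GC box GGGCGG, the CCAAT box, the AP-1 site TGANTCA, the SOX site ACAATG or the E-box CAGATG. The second TATA form was added to the search after the Cilp sequence had been seen.
Cilp, chr9:65264930-65265179, plus strand: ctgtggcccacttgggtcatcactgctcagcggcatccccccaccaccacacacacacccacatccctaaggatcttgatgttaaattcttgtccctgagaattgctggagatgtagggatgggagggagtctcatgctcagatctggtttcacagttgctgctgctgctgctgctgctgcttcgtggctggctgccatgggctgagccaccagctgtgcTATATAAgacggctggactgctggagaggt
Cilp2, chr8:69887393-69887642, minus strand: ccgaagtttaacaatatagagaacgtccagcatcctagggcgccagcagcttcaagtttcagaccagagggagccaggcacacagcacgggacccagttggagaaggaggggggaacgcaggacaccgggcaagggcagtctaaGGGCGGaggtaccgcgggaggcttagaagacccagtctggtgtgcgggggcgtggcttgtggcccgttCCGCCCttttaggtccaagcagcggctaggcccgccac
Thbs3, chr3:89214930-89215179, plus strand: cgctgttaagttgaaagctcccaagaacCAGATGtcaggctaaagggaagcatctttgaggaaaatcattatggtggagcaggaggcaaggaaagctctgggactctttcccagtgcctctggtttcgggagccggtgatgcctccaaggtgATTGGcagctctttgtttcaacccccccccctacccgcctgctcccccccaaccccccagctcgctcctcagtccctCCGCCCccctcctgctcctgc
Thbs4, chr13:92794819-92795068, minus strand: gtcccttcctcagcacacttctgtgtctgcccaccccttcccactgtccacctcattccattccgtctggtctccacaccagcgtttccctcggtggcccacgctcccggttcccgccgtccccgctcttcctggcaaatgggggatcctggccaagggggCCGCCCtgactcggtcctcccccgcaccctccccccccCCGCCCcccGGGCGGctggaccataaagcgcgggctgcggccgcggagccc

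The Cilp window held TATATAA, with its first base 30 bases before the start, and no other match. That motif was in 3.26% of 27018 promoters of the same length. The Cilp2 window held GC boxes 106 and 38 bases before its RefSeq start and no TATA match. By GENCODE the Cilp2 gene, on the minus strand, reaches up to 69887687, so this window lies inside it. The distances hold for the RefSeq start alone. GC boxes were in 32.9% of promoters. The Thbs4 window held 3 GC boxes, and the Thbs3 window held 1 GC box, 1 CCAAT box (34.5% of promoters) and 1 CAGATG (14.5%). The GC content was 56.0% for Cilp, 62.4% for Cilp2, 58.8% for Thbs3 and 70.8% for Thbs4, against a median of 52.0% over all promoters. None of these 4 windows held TATAAA (12.97% of promoters), TGANTCA (6.87%) or ACAATG (11.0%). A match describes letters in the window and nothing about a factor.

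After filtering, 51688 barcodes were kept, with 8467 to 14959 per library. Library totals, over all barcodes before the filter, were 31585993 to 125427849 UMIs (unique molecular identifiers, each one captured RNA molecule). Median UMIs per kept cell were 3299 in the injured library and 7721 to 12496 in the others, and any pair of libraries shared 19 to 39 barcode sequences. Genes of the satellite repeat type led by Gm10800 took 1.15% of the UMIs of the injured library and at most 0.0664% of any other. Cells were clustered without the 10 genes and named from markers. Stromal-like cells, the fibroblast-like cells that make most of the disc, were 10763, 7903, 7659, 8299 and 6841 cells at 3 d, 3 w, 16 w, 78 w and in the injured library, or 72.0% to 87.3% of a library. Levels are CPM, UMIs of a gene scaled to the total UMIs of a class in a library (counts per 1e6), with 95% Poisson intervals. These 3′ tag counts take about 1 end per RNA and carry no length term, so members were set beside each other on the same scale. A cell class lower in a gene's CPM can hold fewer transcripts of it or more of everything else.

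Summed over the 10 genes, stromal-like cells gave 1343 CPM at 3 d. The sum was 9967 CPM at 3 w, 10349 at 16 w, 12493 at 78 w and 6127 in the injured library. At 3 d the order was Thbs4, Thbs2, Matn2, Thbs3, Comp, Cilp, Thbs1, Matn4, Cilp2 and Matn3. From 3 w on Comp led in every library and Cilp was second. Neighbours in these orders differed beyond their Poisson intervals in all 5 libraries, except Thbs3 and Matn2 at 3 w, which had the same count of 7317 UMIs. At 78 w Comp stood above 99.97% of genes with a UMI in these cells, whereas at 3 d it stood above 88.7%.

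**Figure D1:**
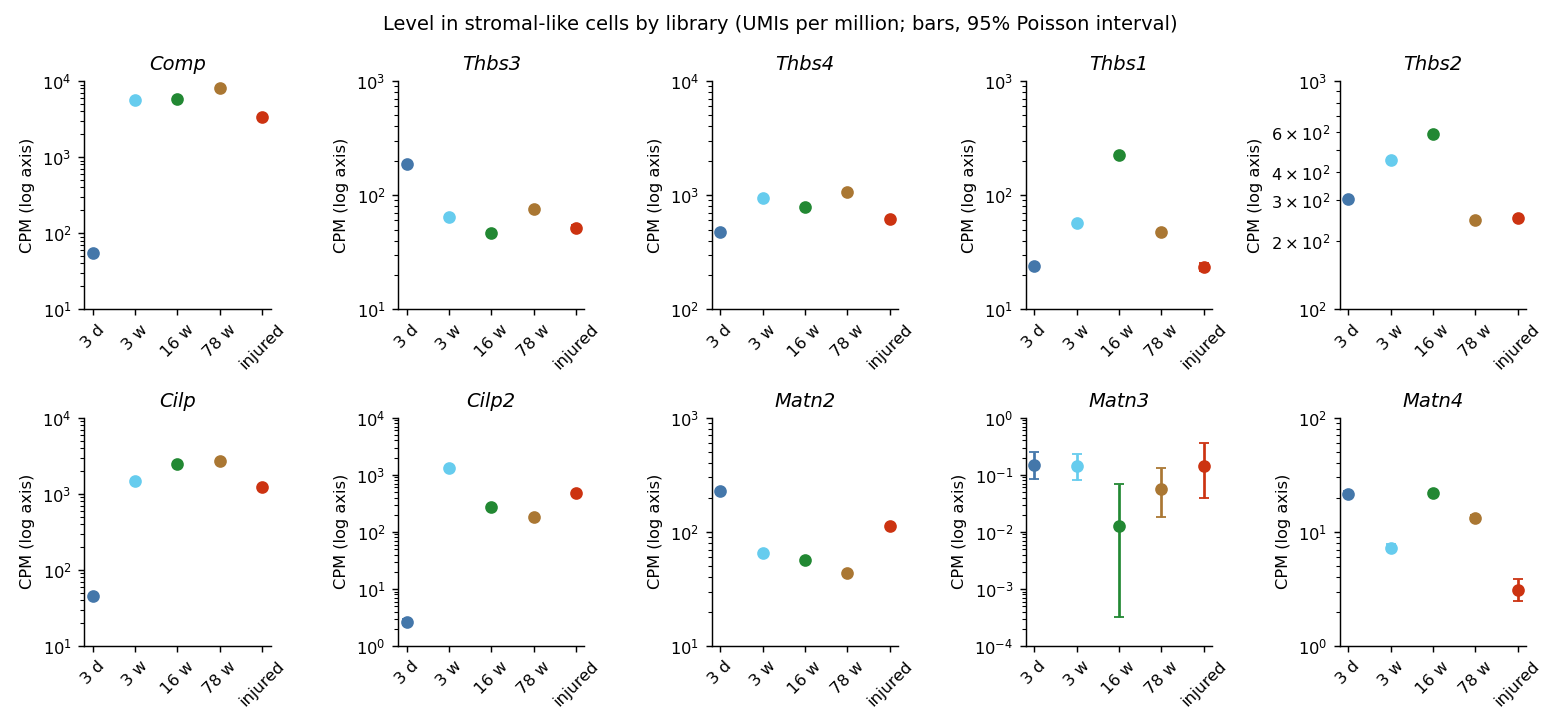
Level of each of the 10 genes in stromal-like cells of the 5 libraries, as CPM on a log axis, with 95% Poisson intervals as bars that are mostly smaller than the points. Comp, Cilp and Cilp2 are lowest at 3 d, Thbs3 and Matn2 are highest at 3 d, Thbs1 peaks at 16 w, and Matn3 stays below 0.2 CPM.

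A gene was counted as past 2-fold when its CPM in the higher library was at least 2 times that in the lower and rested on at least 100 UMIs there. Of the 10 genes, 9 had 100 UMIs in each comparison between ages and Matn3 never did. Between 3 d and 78 w, Comp, Thbs4, Cilp and Cilp2 were past 2-fold higher at 78 w, while Thbs3 and Matn2 were past it lower. Thbs1, at 1.98, was at 3.13 without stromal cells with 2 or more UMIs of other classes' markers, which would make 5 higher. That filter left 1037 of 10763 cells at 3 d and 2592 of 8299 at 78 w. By the main values 4 genes were higher, where 14.3% of 12917 genes with enough UMIs were higher, and 2 were lower, where 21.0% were lower. The median ratio of the 9 was 1.98, against 0.889 over all genes tested. In the 3 d stroma the summed level of 7 erythroid markers was 950.3 CPM, against 3.98 to 205 in the other libraries. That of 5 cycling markers was 235 CPM, against 2.63 to 17.5. From 3 d to 78 w the summed levels went from 432 to 1180 CPM for 8 chondrocyte markers and from 539 to 5003 for 6 tenocyte markers. They went from 19.0 to 1886 for 7 osteoblast markers and from 170 to 12276 for 6 synovial lining markers. Such a sum does not stand for every marker in it. Among the tenocyte markers Fmod alone went from 287 to 4717 CPM, and 2 of the 7 osteoblast markers were above 10 CPM at 78 w. Among the chondrocyte markers Col2a1 went from 9.65 to 161 CPM and Acan from 102 to 121. Col9a1, Col9a2 and Col9a3 were lower at 78 w than at 3 d. The part of these markers in the results was not tested. Most of the distance lay before 3 w. From 3 d to 3 w, Comp, Thbs1, Cilp and Cilp2 were past 2-fold higher (16.3% of 12986 genes) and Thbs3, Matn2 and Matn4 were past it lower (18.9%).

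Later steps moved fewer members. From 3 w to 16 w, Thbs1 and Matn4 were past 2-fold higher (5.17% of 12196 genes) and Cilp2 was past it lower (5.83%). From 16 w to 78 w none of the 10 was past 2-fold higher (2.02% of 11903 genes), and Thbs1 and Thbs2 were past it lower (1.31%). The median ratio of the 9 genes was 1.05 for 16 w over 3 w and 0.762 for 78 w over 16 w, beside 0.932 and 0.960 over all genes. Scaling by median-of-ratios size factors in place of totals shifted all genes against 3 d by log2 0.06 at 3 w, 0.12 at 16 w, 0.19 at 78 w and 0.30 in the injured library, and turned no member's direction.

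Comp, the cartilage and tendon pentamer, gave 55.2 CPM at 3 d (53.8–56.7), 5586 at 3 w (5573–5600.1), 5846 at 16 w (5830–5863), 8113 at 78 w (8094–8131) and 3350.4 in the injured library (3329–3372). The 3 d library was far below all others, the aged library was highest, and the juvenile and adult libraries were close. The ratio was 101-fold for 3 w over 3 d (98.5–104), 1.05 for 16 w over 3 w (1.04–1.05) and 1.39 for 78 w over 16 w (1.38–1.39). The comparison of 16 w with 3 w turned to 0.923 when stromal cells with 2 or more UMIs of other classes' markers were left out. That filter left 1892 of 7903 cells at 3 w and 2656 of 7659 at 16 w. Across 8 stromal clusters found at a finer resolution with cells enough at both ages, the 78 w level was 70.5 to 212 times that at 3 d, so the difference was not confined to any of the 8 clusters.

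Shares of cells gave the same order of ages. With each cell thinned to 1000 UMIs, Comp was found in 4.65% of stromal-like cells at 3 d (exact binomial interval 4.26 to 5.06), 86.8% at 3 w, 88.9% at 16 w, 91.2% at 78 w and 82.5% in the injured library. Thinning left out 7 to 46 cells in the 4 normal libraries and 316 in the injured one. Unthinned shares were 21.6%, 97.7%, 98.7%, 98.9% and 94.4%. In the finer endothelial-like cluster, a type that should lack Comp, thinned shares were 0.138%, 8.07%, 14.4%, 19.8% and 22.1% at median depths of 4335, 5454.5, 5021, 4597 and 1781.5 UMIs. They serve as the background for the stromal shares, and their source was not tested.

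Thbs4, a pentamer subunit of tendon and muscle attachment, gave 476 CPM at 3 d (472–481), 946 at 3 w (940.2–952), 795 at 16 w (789–802), 1066 at 78 w (1059–1073) and 621 in the injured library (612–630.0). Its spread over the ages was 2.24-fold (2.21–2.26) between the lowest, 3 d, and the highest, 78 w, the smallest among the 4 genes counted as higher at 78 w. Thinned to 1000 UMIs, 32.3%, 50.8%, 41.7%, 48.9% and 40.1% of stromal-like cells held a Thbs4 UMI, while 78.6%, 93.9%, 88.9%, 89.5% and 72.7% did unthinned. With synovial lining-like cells added to the stroma the ratio was 1.98 and without integration of the libraries 1.99, both under 2-fold.

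Thbs3, the other pentamer subunit, was highest in the newborn library. It gave 187 CPM at 3 d (184–189), 65.0 at 3 w (63.5–66.5), 46.8 at 16 w (45.3–48.3), 76.0 at 78 w (74.2–77.8) and 51.8 in the injured library (49.2–54.5). The 3 d level was 2.87 times the 3 w one (2.80–2.95). The level at 78 w was below that at 3 d in 8 of 8 finer clusters, and past 2-fold in 5 of them.

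The make-up of the pentameric pool thus differed between the newborn and the later libraries. Of the UMIs of Comp, Thbs3 and Thbs4 together, Thbs4 took 66.3% at 3 d (65.98–66.67), Thbs3 26.0% and Comp 7.69%. At 3 w Comp took 84.7% (84.6–84.8), Thbs4 14.3% and Thbs3 0.985%. Comp kept 87.4% at 16 w, 87.7% at 78 w and 83.3% in the injured library. The pool itself was 718 CPM at 3 d and 9255 CPM at 78 w.

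**Figure D2:**
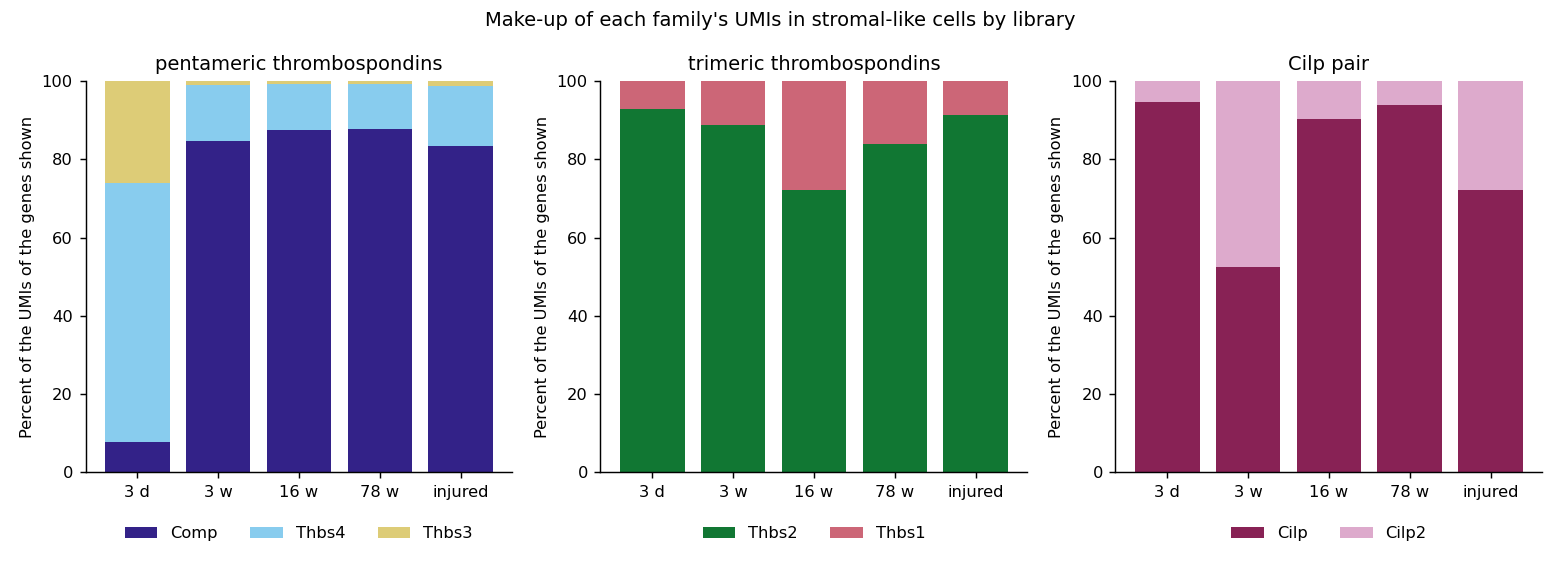
Share of each gene among the UMIs of its family in stromal-like cells, in percent, for the pentameric thrombospondins, the trimeric thrombospondins and the Cilp pair, 1 bar per library. Comp takes 7.69% of the pentameric UMIs at 3 d and 83.3% to 87.7% in the other libraries, Thbs1 takes its largest share, 27.9%, at 16 w, and Cilp2 takes 47.4% of the Cilp pair at 3 w alone.

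Thbs2, a trimer that regulates fibril diameter and restrains vessel growth, gave 304 CPM at 3 d (300.5–307), 452 at 3 w (448–456), 588 at 16 w (582–593), 246 at 78 w (243–249) and 251 in the injured library (245–257). It was highest in the adult library and lowest in the aged one, 2.39-fold apart (2.35–2.43). The order of 3 d and 78 w did not hold within most clusters. In 6 of 8 finer clusters the 78 w level was above the 3 d level, at ratios of 0.454 to 1.43 over the 8. The level at 78 w was below that at 16 w in all 8 finer clusters, at ratios of 0.356 to 0.693, and past 2-fold in 6. With thinning, 24.8%, 31.9%, 34.4%, 17.9% and 19.97% of stromal-like cells held a Thbs2 UMI.

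Thbs1, the trimer that can activate latent TGF-beta, gave 23.8 CPM at 3 d (22.9–24.8), 57.3 at 3 w (55.9–58.7), 227 at 16 w (224–230.3), 47.2 at 78 w (45.8–48.6) and 23.5 in the injured library (21.7–25.4). The adult library stood alone, 3.96-fold above 3 w (3.85–4.08) and 4.81-fold above 78 w (4.66–4.98). With thinning, 10.5% of stromal-like cells held a Thbs1 UMI at 16 w (9.85–11.2), against 1.71% to 4.00% in the other libraries. Between 3 d and 78 w the finer clusters went both ways, with 4 of 7 above 1, at ratios of 0.457 to 13.1. Among them at 16 w the level ran from 31.1 CPM in cluster 5 to 492 CPM in cluster 12. Thbs1 is also an early response gene to serum and stress. The summed level of 8 immediate early genes (Fos, Fosb, Jun, Junb, Egr1, Atf3, Ier2 and Nr4a1, a list added after the Thbs1 values were seen) in the same cells was 4586 CPM at 3 d, 7912 at 3 w, 12042 at 16 w, 7348 at 78 w and 6102 in the injured library. At 16 w 5 of the 8 were at their highest of the 5 libraries, with 2 highest at 3 w and 1 at 3 d. The share of all genes that were highest at 16 w is not given beside this count. The part of the 8 genes in the Thbs1 level was not tested.

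In the mean over the normal libraries Thbs1 was highest in mural-like cells. Mural-like cells, the smooth muscle cells and pericytes around vessels, gave 129 CPM at 3 d, 650.2 at 3 w, 665 at 16 w, 737 at 78 w and 319 in the injured library, from 116 to 353 cells each. In each library that was above the stromal level, at 293% to 1562% of it. The mural level at 16 w was 1.02 times that at 3 w (0.953–1.10) and the 78 w level 1.11 times that at 16 w (1.03–1.19), so the peak at 16 w in the stroma had no counterpart past 2-fold in mural-like cells. With thinning, 39.0% of mural-like cells held a Thbs1 UMI at 3 w, 32.9% at 16 w and 30.7% at 78 w. Endothelial-like cells of the finer cluster gave 44.6, 116, 103, 54.6 and 172 CPM, and macrophage-like cells 59.6, 32.6, 55.3, 59.3 and 79.2 CPM, in the order of the libraries. Of the UMIs of both trimers in the stroma, Thbs1 took 7.27% at 3 d, 11.2% at 3 w, 27.9% at 16 w, 16.1% at 78 w and 8.57% in the injured library.

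Cilp gave 46.1 CPM at 3 d (44.8–47.4), 1466 at 3 w (1459–1473), 2497 at 16 w (2486–2508), 2710 at 78 w (2699–2720.4) and 1236 in the injured library (1223–1249). Its level was higher at each later age, 31.8-fold for 3 w over 3 d (30.9–32.8) and 58.8-fold for 78 w over 3 d (57.1–60.6), with the last step, 1.09-fold, the smallest. In 8 of 8 finer clusters the 78 w level was above the 3 d level, by 16.2 to 93.7 times. The thinned share of cells with a UMI was 3.89% at 3 d, 56.0% at 3 w, 66.9% at 16 w, 72.6% at 78 w and 56.1% in the injured library, and 0.277% to 7.38% in the finer endothelial-like cluster.

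Cilp2, the paralogue, shared the first step of Cilp and not the next. It gave 2.65 CPM at 3 d (2.35–2.99, from 267 UMIs), 1322 at 3 w (1315–1328), 271 at 16 w (267–275), 179 at 78 w (176–182) and 478 in the injured library (470–486). The juvenile library was the highest and 498 times the newborn one (442–564). From 3 w to 16 w the level was 4.88-fold lower (4.81–4.95), and lower in all 8 finer clusters at ratios of 0.125 to 0.398. The thinned share of cells with a UMI was 0.355%, 52.5%, 18.7%, 13.9% and 31.6%. The sum of both genes stood at 2788, 2768 and 2888 CPM for 3 w, 16 w and 78 w, while the share of Cilp2 in it was 47.4% at 3 w (47.2–47.6), then 9.79% (16 w) and 6.19% (78 w).

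The size of the first step varied with how it was taken. In 7 finer clusters the Cilp2 ratio of 3 w over 3 d was 101 to 328, each below the pooled one. Setting the stromal clusters at equal weight gave 248. Stromal cluster 3 of the main resolution, with a mean Cilp2 level of 70.1 CPM over the normal libraries, held 41.8% of the 3 d library and 15.1% of the 3 w one. Its part in the ratio was not tested. Subtracting the endothelial-like level of the main resolution gave 607. That cluster took in mixed barcodes, with stromal markers at medians of 17.7% to 28.3% of their stromal level, so it is not free RNA alone. The direction held in all 11 alternatives.

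Matn2, the matrilin of fibroblasts and nerve sheath, was highest in the newborn stroma. It gave 227 CPM at 3 d (224–229.6), 65.0 at 3 w (63.5–66.5), 56.7 at 16 w (55.0–58.3), 43.2 at 78 w (41.8–44.6) and 113 in the injured library (109–117). The 78 w level was 5.25-fold below the 3 d level (5.07–5.43), and past 2-fold lower in 8 of 8 finer clusters. Thinned shares were 20.1%, 5.94%, 4.76%, 3.66% and 9.93%. In the clustering without integration, 92 cells formed a Schwann-like cluster, named from its markers, in which Matn2 reached 392 CPM at 3 d (315–481) and 565 CPM at 78 w (433–724), the libraries in which it held at least 20 cells. At both ages that was above the level of the pooled stroma with no overlap of intervals. At 3 d it was not above every stromal cluster, since finer clusters 6 and 3 gave 506 and 440 CPM.

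Matn3 and Matn4 are matrilins of cartilage and of wider tissues. Matn3 was at the limit of detection, with 15, 16, 1, 5 and 4 UMIs over the stromal-like cells of the 5 libraries, or 0.149, 0.142, 0.0125, 0.0553 and 0.144 CPM, and 46 UMIs over all kept cells. Matn4 gave 21.7 CPM at 3 d (20.8–22.6), 7.29 at 3 w (6.80–7.81), 21.9 at 16 w (20.9–22.9), 13.3 at 78 w (12.5–14.0) and 3.12 in the injured library (2.50–3.85, from 87 UMIs). The 3 d and 16 w levels did not differ beyond their intervals. Within the matrilin UMIs of the stroma Matn2 took 72.1% to 97.2%.

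Synovial lining-like cells are the lubricin-making cells of the joint lining. In them Thbs3 and Matn4 were above the stroma, here all stromal-like cells pooled, in every library, and Thbs4 had another order of ages. Matn4 gave 53.8 CPM there at 3 d, 182 at 3 w, 75.5 at 16 w, 111 at 78 w and 18.9 in the injured library, from 87 to 441 cells each and 248% to 2494% of the stromal level of the same library. Thbs4 gave 1594, 1014, 638, 513 and 436 CPM, lower at each later age, and it stood at 335% of the stromal level at 3 d and 48.1% of it at 78 w. Thbs3 was higher than in the pooled stroma in all 5 libraries, at 117% to 158% of it. Single finer stromal clusters were not all below this class. The mean Thbs3 level over the normal libraries was 157 CPM in finer cluster 5, against 125 CPM in synovial lining-like cells. At 3 d finer clusters 3 and 6 gave Matn4 at 107 and 101 CPM. They gave Matn2 at 440 and 506 CPM, against 323 CPM in synovial lining-like cells. Matn2 was above the stroma in the 4 normal libraries, at 109% to 169% of it, and at 78.1% of it in the injured one. Cilp2 stood at 476% of the stromal level at 3 d, from 54 UMIs, and at 18.2% to 65.8% of it in the other libraries. Comp and Cilp reached 925 to 1255 and 599 to 1148 CPM from 3 w to 78 w, below the stroma in each library. A Matn4 level above the stroma was not confined to this class. In macrophage-like cells it stood at 167% of the stromal level at 3 d (142 UMIs) and 203% at 3 w (43 UMIs). In the other libraries it stood at 33.4% to 75.3% there.

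**Figure D3:**
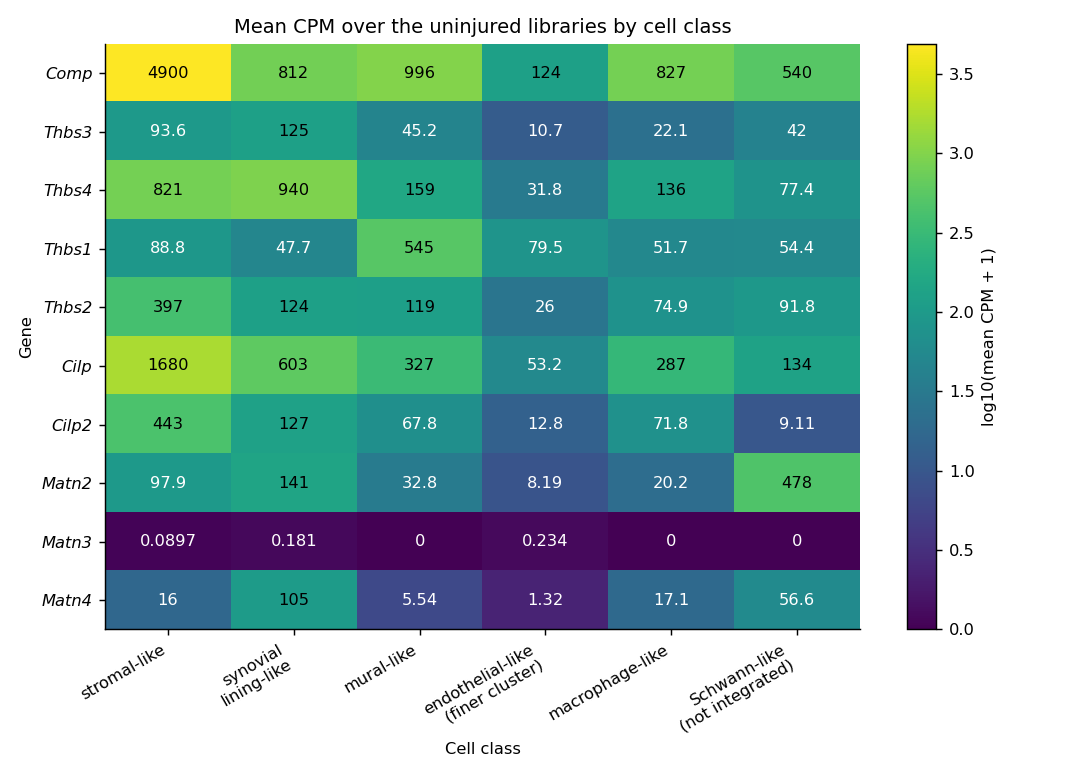
Mean level over the uninjured libraries with at least 20 cells of a class, each library with equal weight, by gene and cell class, printed as CPM and coloured on a log10 scale. By these means, with all stromal-like cells pooled, Comp, Cilp, Cilp2 and Thbs2 are highest in stromal-like cells and Thbs1 in mural-like cells (545 CPM). Thbs3, Thbs4 and Matn4 are highest in synovial lining-like cells and Matn2 in the Schwann-like cluster (478 CPM, from 2 libraries). Single finer stromal clusters had higher means than synovial lining-like cells, up to 1472 CPM for Thbs4 (cluster 8, against 940) and 157 CPM for Thbs3 (cluster 5, against 125). At 16 w and 78 w Thbs4 in synovial lining-like cells was below the stroma, at 80.2% and 48.1% of it.

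Members abundant in the stroma were also counted in other classes, and their levels there are set beside those of stromal markers. The source of these counts was not tested. The endothelial-like cluster at the main resolution gave Comp at 1083 to 1193 CPM from 3 w to 78 w. At the finer resolution it split into 2999 endothelial-like cells with 106 to 241 CPM and 561 barcodes of high depth, led by haemoglobin and endothelial genes, with 3498 to 3908 CPM. In the finer endothelial-like cluster the 6 stromal markers stood at a median of 7.96%, 2.13%, 3.07%, 2.98% and 8.36% of their stromal level, in the order of the libraries, and Comp at 7.77%, 1.90%, 2.47%, 2.97% and 9.004%. Cilp and Cilp2 lay at 1.92% to 14.1% there. Thbs1 did not follow them, at 45.2% to 730%. In mural-like cells Comp stood at 16.7% to 24.7% of its stromal level and the stromal markers at medians of 22.3% to 31.1%. At 3 w Comp stood at 24.1% there and the marker median at 22.3%, and in the other 4 libraries Comp was below the marker median.

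Within the stroma the members marked different clusters. The finer clusters were taken at the same resolution in all libraries, and their leading genes were computed over all cells. Comp was highest in cluster 12, led by Col2a1, Ibsp and Cytl1 and holding cartilage genes, at 9878, 14615 and 14069 CPM for 3 w, 16 w and 78 w, and lowest in cluster 5, led by the adventitial fibroblast genes Pi16 and Clec3b, at 1650.4, 2156 and 1938 CPM. The intervals of these clusters did not overlap at any of the 3 ages. At 3 d the same clusters gave 66.3 CPM from 49 cells and 27.5 CPM from 2256 cells.

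Cilp was highest in cluster 6, led by Aoc2, Slurp1 and Inhba, at 2989, 4954 and 4663.5 CPM for 3 w, 16 w and 78 w, and again lowest in cluster 5, at 651, 909 and 796 CPM. Cilp2 had the same extremes, 2162, 655 and 352 CPM in cluster 6 and 104, 27.9 and 9.45 CPM in cluster 5. Thbs4 at 78 w was highest in clusters 4 and 8, at 2256 and 2225 CPM, where cluster 4 was led by C1qtnf3, Mfap4 and the tendon gene Kera, and lowest in cluster 12, at 473 CPM, so its order was not that of Comp. Thbs2 also led in cluster 4, at 1525 CPM at 16 w. Thbs3 was highest in cluster 5 at 3 w, 16 w and 78 w, at 154, 123 and 152 CPM, the cluster in which Comp was lowest. Matn2 and Matn4 at 3 d were highest in clusters 6 and 3, at 506 and 440 CPM for Matn2 and 101 and 107 CPM for Matn4.

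**Figure D4:**
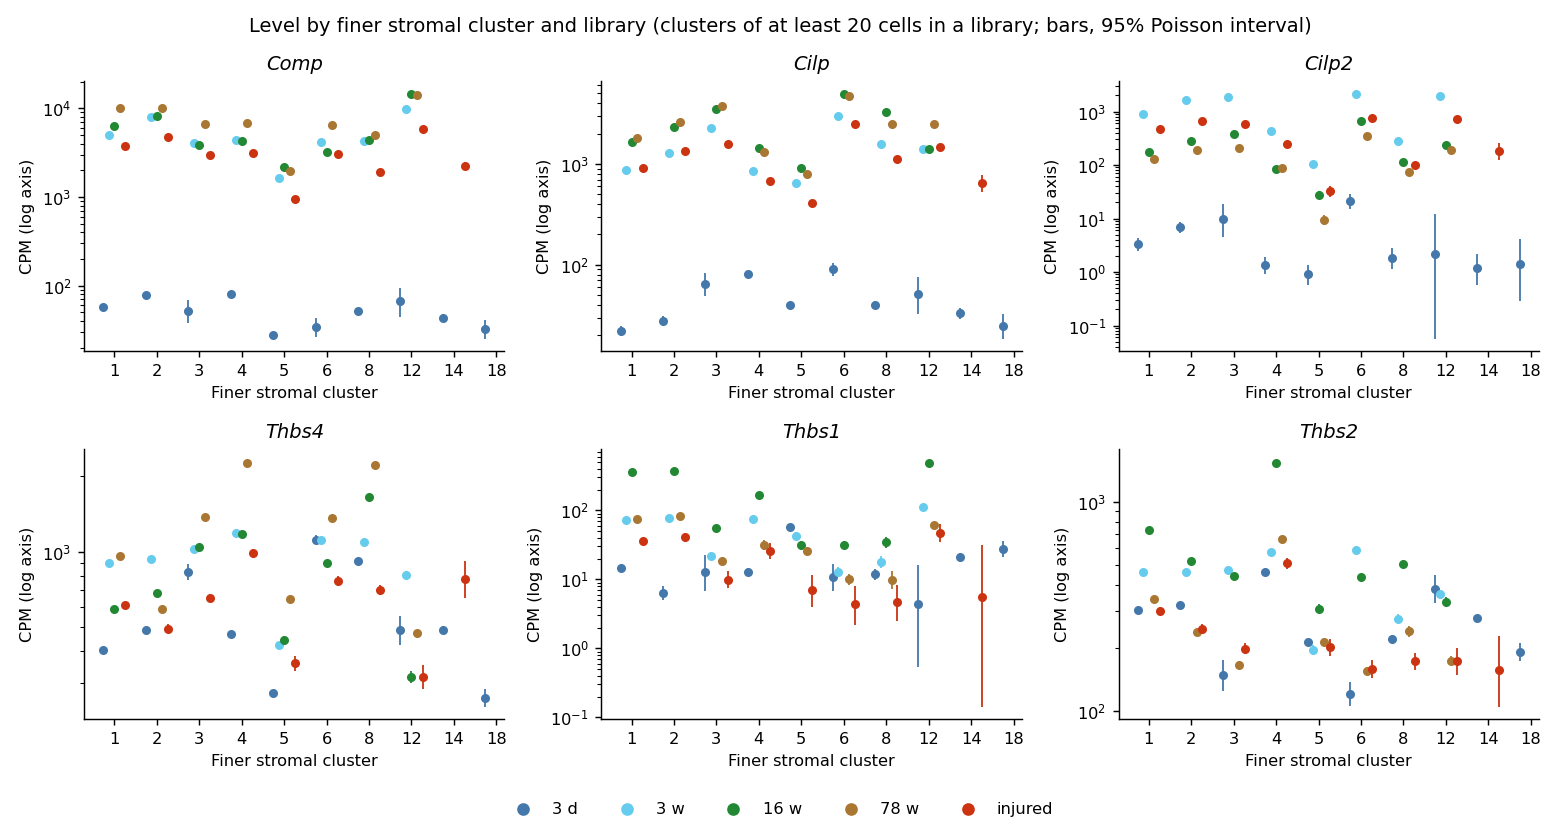
Level of 6 genes in each finer stromal cluster, as CPM on a log axis, with 1 point per library and 95% Poisson intervals, for clusters of at least 20 cells in the library. The 3 d points of Comp and Cilp lie below every later point of the same cluster, the 3 w points of Cilp2 lie highest in each cluster shown at that age, and the 16 w points of Thbs1 lie highest in all such clusters but cluster 5.

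Likeness of pattern was measured as Pearson's r of log2(CPM + 1) over 41 combinations of 10 finer stromal clusters with a library of at least 50 cells, over 10920 genes. These units share libraries, depth and cells' neighbours, and r is a description. Most like Comp were Cp (0.957), Prelp (0.955) and Myo1d (0.949), and most like Cilp were Prelp (0.964), Slc22a4 (0.957) and Tgoln1 (0.957). Prelp, a leucine-rich proteoglycan that anchors collagen to basement membranes, was on both lists. Most like Cilp2 were Gabarapl2 (0.935), Max (0.927) and Cd9 (0.926), most like Thbs3 Tax1bp3 (0.925), Dctn2 (0.910) and the collagenolytic membrane protease Mmp14 (0.908), and most like Matn2 Csad (0.916), 2810001G20Rik (0.893) and Spink2 (0.892). The nearest genes of the others lay lower, from 0.821 for Rapgef3 with Thbs1, through 0.819 for Zfp292 with Matn4 and 0.813 for Inf2 with Thbs4, to 0.744 for Map2 with Thbs2. Between members, Comp went with Cilp (0.937) and Cilp2 (0.846) and against Thbs3 (-0.783) and Matn2 (-0.783). How much of this is the contrast of 3 d with the later libraries was not tested. Over thinned stromal-like cells, Spearman's correlation of Comp with Cilp was -0.000777 at 3 d, 0.0625 at 3 w and 0.0844 at 16 w. It was 0.192 at 78 w and 0.181 in the injured library. For Comp with Cilp2 it was 0.00973, 0.272, 0.0554, 0.134 and 0.219, in the order of the libraries.

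In the injured library the 10 genes together, at 6127 CPM, were below their sum at 3 w and at 16 w. Thbs1 and Matn4 were the members past 2-fold below both 3 w and 16 w, 2 of 10 (8.02% of 10905 genes were), and by the main values none was past 2-fold above both (3.23%). The median gene was at 0.775 of its 3 w level and 0.808 of its 16 w level, the base against which the values below stand. Thbs1 stood at 0.410 of the 3 w level (0.378–0.444) and 0.104 of the 16 w level (0.0956–0.112), and Matn4 at 0.428 (0.339–0.535) and 0.143 (0.114–0.177). Comp stood at 0.600 (0.596–0.604) and 0.573 (0.569–0.577), and it was below both ages in 8 of 8 finer clusters.

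Cilp2 and Matn2 lay elsewhere. Cilp2 in the injured library was 0.362 of the 3 w level (0.355–0.368) and 1.76 times the 16 w level (1.73–1.80), between the 2 ages. Matn2 was above both, at 1.74 times the 3 w level (1.67–1.81) and 1.99 times the 16 w level (1.90–2.09), just short of 2-fold. It was past 2-fold above both without stromal cells with 2 or more UMIs of other classes' markers (2.14 and 2.60) and with median-of-ratios scaling (2.04 and 2.25). The marker filter left 5017 of 6841 cells in the injured library, 1892 of 7903 at 3 w and 2656 of 7659 at 16 w. Matn2 was above the 3 w level in 7 of 8 finer clusters and above the 16 w level in 7 of 8. Thbs2 was at 0.554 and 0.427, Cilp at 0.843 and 0.495, Thbs4 at 0.656 and 0.780 of the respective levels. Thbs3 was at 0.797 of the 3 w level and 1.11 times the 16 w level, which turned to 0.973 with stromal clusters at equal weight.

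Depth and markers of other cells moved with this library. Its median depth in stromal-like cells was 3580 UMIs against 8438 to 13233 elsewhere, and the summed level of 7 macrophage markers in its stromal-like cells was 66.6 CPM against 10.2 to 18.9 in the others, with none of the 7 at 0. The 7 erythroid markers summed to 205 CPM there, with 2 of them at 0, against 3.98 at 3 w and 33.1 at 16 w. The 8 chondrocyte markers summed to 1328 CPM, against 468 and 903. Among these, Col2a1 was at 184 CPM, against 24.6 at 3 w and 57.5 at 16 w. Col9a1, Col9a2 and Col9a3 were below their 3 w levels and above their 16 w levels. The part of depth and of these markers in the result was not tested. With cells thinned to 1000 UMIs, Matn4 stood at 0.298 of the 3 w and 0.123 of the 16 w level but under the minimum of 100 UMIs, which left Thbs1 as the 1 member counted.

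**Figure D5:**
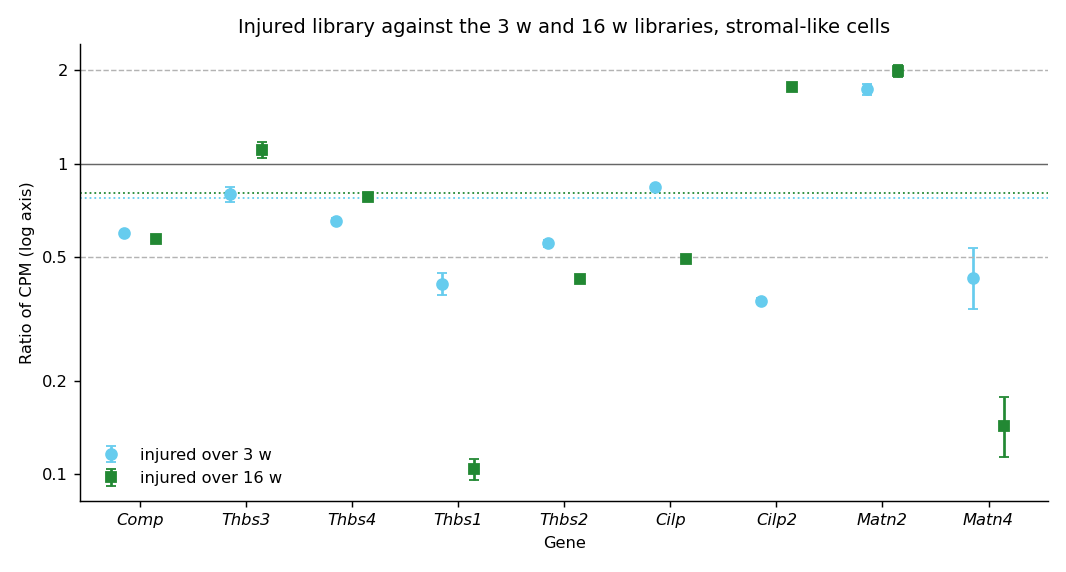
Ratio of CPM in stromal-like cells of the injured library to the 3 w library (circles) and to the 16 w library (squares), on a log axis, with 95% intervals from counts, for the 9 genes with enough UMIs. Dotted lines mark the median of all genes (0.775 and 0.808) and dashed lines 2-fold, and only Thbs1 and Matn4 have both points below the lower dashed line.

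Genes that work with these proteins were read from 4 lists. Of 14 thrombospondin receptors, 13 had enough UMIs between 3 d and 78 w, 5 were past 2-fold higher and 1 lower, with a median ratio of 0.903. Over all genes in this comparison, 14.3% were higher and 21.0% lower, with a median of 0.889. Sdc4, a heparan sulphate proteoglycan receptor, was 11.6-fold higher (224 to 2598 CPM) and Itga3 4.74-fold (0.676 to 3.21 CPM). Itgb3 was 3.08-fold lower (8.21 to 2.66 CPM). Cd36, the receptor for the type 1 repeats of Thbs1 and Thbs2, was not past 2-fold between 3 d and 78 w (1.90 to 0.973 CPM). It was low throughout, from 0.346 CPM at 3 w, past 2-fold below 3 d, to 2.87 CPM in the injured library.

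Of 12 genes of the TGF-beta and IGF arm, 4 were higher (14.3% over all genes) and 3 lower (21.0%), with a median ratio of 1.32 (0.889). Tgfb1 was 3.15-fold higher (17.7 to 55.8 CPM) and the co-receptor Tgfbr3 2.73-fold. Igf1, the growth factor whose signalling Cilp can blunt, was 9.53-fold lower (511 to 53.7 CPM), and Ltbp1, a latent TGF-beta binding protein, 7.12-fold lower. In the injured library Igf1 was at 216 CPM, past 2-fold above both 3 w (43.0) and 16 w (27.8).

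Of 14 matrix partners, 4 were higher (14.3% over all genes) and 7 lower (21.0%), with a median ratio of 0.448 (0.889). Col2a1, the cartilage fibril collagen, was 16.7-fold higher (9.65 to 161 CPM) and the proteoglycan Fmod 16.4-fold (287 to 4717 CPM). Col9a2, a chain of the collagen that binds Comp and Matn3 at the fibril surface, was 51.8-fold lower (21.2 to 0.409 CPM), and Col1a1, the main fibril collagen of the disc, 10.8-fold lower (9728 to 903 CPM). Of 11 proteases that cut Comp, aggrecan or collagen, 10 had enough UMIs, 5 were higher (14.3% over all genes) and 4 lower (21.0%), with a median ratio of 2.32 (0.889). Mmp3 was 19.2-fold higher (2.60 to 49.96 CPM), and Mmp13, from 1 UMI at 3 d, 235-fold (interval 41.7 to 9313). Mmp14 was 8.52-fold lower (458 to 53.8 CPM) and Adamts12, which cuts Comp, 7.57-fold lower (4.35 to 0.575 CPM).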

How the data were processed

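Cells of the TMJ disc were measured by droplet single-cell RNA sequencing, with 1 library per condition. The deposited matrices hold counts of UMIs per gene and barcode, with no normalization. Per the labels the authors made them with Cell Ranger (3.1 in the submitters' processing notes, 4.0.0 in the file header) on mm10, and the strand setting is not given in the sources used here.

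The cell filter asked for over 200 UMIs, of which no more than 30% could be mitochondrial. Libraries were integrated in Seurat 5.3.0 (R 4.3.3, Matrix 1.6.5) over 30 dimensions, with 1992 features after the 8 members among 2000 were taken out, and clustered at a resolution of 0.2, with 0.5 as the finer resolution. No doublet caller was run, and stromal cells with 2 or more UMIs of other classes' markers were left out as an alternative. Clusters were named from marker lists by a scoring rule set after the clusters were seen. Unnamed were a cluster of low UMI count and a cluster with Schwann and muscle genes. UMIs were summed per class and library to CPM in Python 3.11.15 (numpy 2.4.6, scipy 1.17.1, pandas 2.3.3, matplotlib 3.10.9), for classes of at least 20 cells in a library. Intervals are exact Poisson, Clopper-Pearson or ratio-of-counts intervals at 95%. Where UMIs are 0, the limit is taken as 3 counts. Shares were taken after thinning each cell to 1000 UMIs. Library totals over all barcodes, before the filter, ran from 31585993 to 125427849 UMIs.

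The members and lists were chosen with earlier results of these data known. Named were all 10 members, for each the 3 genes of most alike pattern (genes with at least 1000 UMIs), and from each partner list the 2 genes with the largest ratio of 78 w to 3 d in each direction. The calculation of the fold rule was checked on simulated Poisson counts. These held no variation between animals or libraries, so the check says nothing about that variation. Alternatives changed the cell filter, resolution, integration, weighting, depth, free RNA, stromal cells with other classes' markers, synovial class, scaling, fold and count minimum.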

Additional observations from a re-analysis of the deposited data

Results flagged for a closer look

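For the 2 genes flagged here the direction of change with age differed between cell classes or stromal clusters, by values whose counting intervals lay on opposite sides of 1. Other members also went both ways between 3 d and 78 w. Over the finer stromal clusters the ratio of 78 w to 3 d ran from 0.457 to 13.1 for Thbs1 and from 0.454 to 1.43 for Thbs2. The ratio of 78 w to 3 d of Thbs4 was 2.24 in stromal-like cells, 2.55 in stromal cluster 1 and 3.24 in stromal cluster 3, and 0.322 in synovial lining-like cells. That of Matn4 was 2.06 in synovial lining-like cells and 0.251 in stromal cluster 2. Cluster numbers here are those of the main resolution. With 1 library per age the difference between classes was not tested.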

How the results depend on the processing

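Of 54 ratios of single members between libraries, 52 kept their direction in every alternative run, up to 11 for each. The 2 that reversed were Comp at 16 w over 3 w, 0.923 without stromal cells with 2 or more UMIs of other classes' markers, and Thbs3 in the injured library over 16 w, 0.973 with stromal clusters at equal weight. The causes were not tested. Leaving out stromal cells with those markers kept 1037 of 10763 cells at 3 d, 1892 of 7903 at 3 w and 2656 of 7659 at 16 w. It kept 2592 of 8299 at 78 w and 5017 of 6841 in the injured library. Whether the cells left out were mixed was not tested. At a 1.5-fold limit 5 members were past it between 16 w and 78 w, in place of 2. Thbs3 was higher at 78 w and Thbs1, Thbs2, Cilp2 and Matn4 were lower. In the injured library 5 were, in place of 2, with Matn2 above both ages and Comp, Thbs1, Thbs2 and Matn4 below both. No share over all genes is given beside these counts, or beside those after thinning and after subtraction below. In the injured library 1 member was past 2-fold after thinning, when Matn4 had under 100 UMIs. With the endothelial-like level of the main resolution subtracted, a level that takes in mixed barcodes, 1 was, namely Thbs2 (0.421 of 3 w and 0.309 of 16 w). There Matn4 was at 0.608 of 3 w, and Thbs1 has no value, since its endothelial-like level was below the stromal one at 16 w alone. With no filter on low counts the genes past 2-fold numbered 7100 at 78 w against 3 d, 7224 at 3 w against 3 d, 3004 at 16 w against 3 w and 1538 at 78 w against 16 w. With the minimum of 100 UMIs, and both directions together, they numbered 4565 of 12917, 4571 of 12986, 1341 of 12196 and 397 of 11903 genes in these comparisons. With at least 10 UMIs they numbered 2652 at 16 w against 3 w and 1215 at 78 w against 16 w. These counts grow because more genes of few UMIs enter. Subtraction of the finer endothelial-like level was added after the data were seen. No paired analysis was possible because each condition has 1 library. Matn3, with 1 to 16 stromal UMIs per library, was too rare for any comparison.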
